A study of Mus musculus with 20 samples.

Results

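The locus of the long noncoding RNA genes Malat1 and Neat1 was taken as every peak of the 19 deposited peak lists that overlapped positions 5770000 to 5880000 of chromosome 19 in mouse genome build mm9 by at least 1 bp. It held 179 of the 284878 peaks of the series, with a minimum of 3 and a maximum of 21 peaks from any 1 list. The window was selected on the width of a merged region and its number of bound factors, with results of these data in view: it holds both genes and the widest region bound by 5 transcription factors at 4 hours. Its number of peaks, the width of that region and the number of factors in it are therefore given as a description, with no test. The outermost peaks inside the window lay at 5771168 to 5771607 and at 5877790 to 5878512. The nearest peaks outside it lay at 5743494 to 5744000 and at 5912436 to 5913077, so no peak crossed an edge.

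Malat1 and Neat1 are transcripts that stay in the nucleus and are not translated. Neat1 RNA is the scaffold on which paraspeckles, nuclear bodies that hold RNA-binding proteins, are built, and it is made as a short and a long isoform that share a start. Malat1 RNA is abundant in many cell types and collects in nuclear speckles, where splicing factors are stored. With RefSeq genes of build GRCm38.p6 sorted by their lowest position, the order was Malat1, the small RNA Mascrna and Neat1. This order does not show whether the genes overlap. The deposited lists name no genes and no mm9 annotation was used here, so peaks are given by their mm9 positions and were not placed in a promoter, exon or intron.

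The lists came from 3T3-L1, a mouse preadipocyte cell line that becomes adipocyte-like after hormonal induction, and each group was 1 library with no replicate. All groups were of this 1 line, kept in DMEM with calf serum. Cells at day 0 had been confluent for 2 days and had not been induced. Cells at 2 hours, 4 hours, day 1 and day 2 had received fetal bovine serum, 3-isobutyl-1-methylxanthine, dexamethasone and insulin, with insulin and fetal bovine serum alone following on day 2 and fetal bovine serum alone until the mature adipocyte stage of day 6. Open chromatin was mapped at all 6 times by sequencing DNase I hypersensitive sites (DHS-seq). By chromatin immunoprecipitation, GR, Stat5a and RXR were mapped at 4 hours only, C/EBPdelta and RNA Pol II at 4 hours and on day 0, PPARgamma on day 6 and day 2, and C/EBPbeta at 4 times, on day 0, at 2 and 4 hours, and on day 2.

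A list says only where a peak lies, with no height, score or read count, and its number of peaks (2076 for RXR at 4 hours to 35389 for DHS on day 1) stands in place of the depth, which is unknown. A difference between times is a difference between 2 libraries and was not tested against replicate spread. A region open in more of the cells and a region more open in each cell cannot be told apart. The length that peaks cover moves with the length of the list, so each count is set beside the same count over the genome.

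The promoter that RefSeq gives for Malat1 is shown because it is the start of a member gene and the only sequence of the locus at hand. Neat1 had no entry. The sequence runs from 250 bases before to 50 bases after the start at chr19:5802623-5802922 of GRCm38.p6, minus strand, and capitals mark the 50 transcribed bases. These positions belong to another build and were not set against the peaks.
Malat1 promoter: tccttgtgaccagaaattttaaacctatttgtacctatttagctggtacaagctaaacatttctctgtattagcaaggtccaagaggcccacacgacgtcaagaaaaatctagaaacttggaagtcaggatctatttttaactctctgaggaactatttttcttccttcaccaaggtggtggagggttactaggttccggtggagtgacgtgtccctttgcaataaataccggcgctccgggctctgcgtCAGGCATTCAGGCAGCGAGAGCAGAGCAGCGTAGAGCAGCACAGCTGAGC
Neither strand held TTGCNNAA (the C/EBP motif searched, found in 10.8% of 32851 RefSeq promoters of this length), TTCNNNGAA (Stat5, 8.3%), the palindromic GR element (0.00913%) or its form with 1 free position (0.0396%, which includes all matches of the first), the PPARgamma-RXR element with 1 spacer base (0.0396%) or the TATA box letters TATAAA (13.6%). This says only that these letters are not in this window.

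Most peaks of the locus fell into 2 clusters. Peaks of all lists less than 5 kb apart, a spacing chosen after their positions were seen, formed 6 clusters, and 158 of the 179 peaks were in 2 of them. One, from 5793034 to 5806366, held 52 peaks of 15 lists and is called the lower cluster. The other, from 5825455 to 5850644, held 106 peaks of all 19 lists and is called the upper cluster. The 4 remaining clusters held 21 peaks of DHS and C/EBPbeta lists between them, and both RNA Pol II lists had peaks in the lower and the upper cluster alone. Where the genome was tiled from the start of each chromosome in 110 kb steps, 2 of 16141 tiles with any peak (0.0124%) held 179 or more peaks, and the median tile held 12. All 19 lists had a peak in 81 of those tiles (0.502%). The window was placed with its peaks in view and the tiles were not. These shares are therefore a description and do not measure how rare such a locus is.

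**Figure D1:**
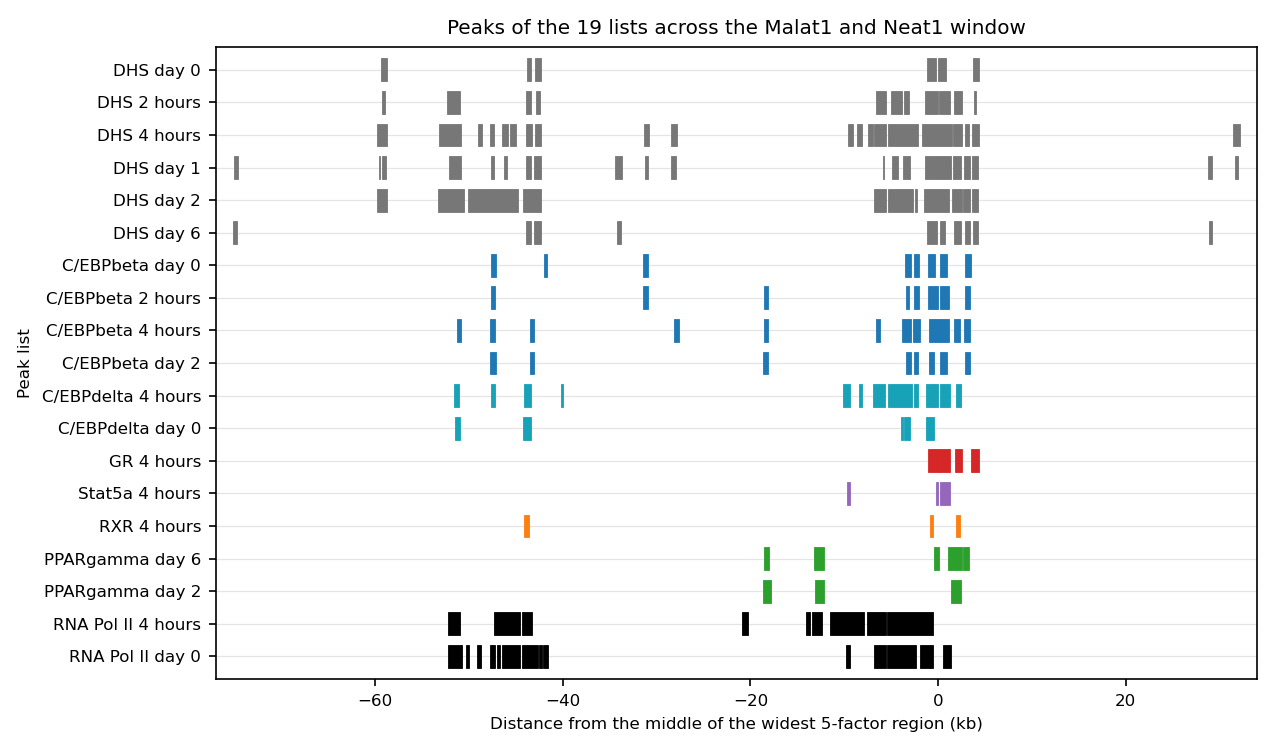
Peaks of the 19 lists (rows) across the window, by distance in kb from the middle of the widest region bound by 5 factors at 4 hours; each box is 1 peak drawn to its width. The boxes gather in the lower cluster, left, which has no GR, Stat5a or PPARgamma peak, and in the upper cluster around 0, where all 19 lists have peaks.

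The region bound by all 5 factors of 4 hours lay in the upper cluster at 5844994 to 5847648 and spanned 2655 bp. C/EBPbeta and C/EBPdelta are related basic leucine zipper factors of early adipogenesis, GR is the receptor that dexamethasone activates, RXR is the shared partner of several nuclear receptors, and Stat5a is a signal-activated factor downstream of cytokine and growth hormone receptors. Of 15 regions of the window with any of the 5 factors, it was the 1 with all 5, against 2.65% of 35341 such regions over the genome. It was built of 10 peaks of the 5 factors. Its width and factor number were the reason for the choice of the window.

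No base of this region carried peaks of all 5 factors. C/EBPbeta, C/EBPdelta and GR lay over both parts of it, whereas RXR had 1 peak of 280 bp at 5845465 to 5845744 and Stat5a had peaks of 283 bp at 5846063 to 5846345 and of 1111 bp at 5846538 to 5847648. The RXR peak ended 318 bp short of the nearest Stat5a peak. Groups of 4 factors shared 1531 bp in 3 stretches. The first, the 280 bp of the RXR peak, held C/EBPbeta, C/EBPdelta, GR and RXR. The second, of 283 bp at 5846063 to 5846345, and the third, of 968 bp at 5846554 to 5847521, held C/EBPbeta, C/EBPdelta, GR and Stat5a. The left and right parts of the region were joined by 17 bp of overlap between the second C/EBPbeta peak and the first GR peak. The left part alone had peaks of all 5 factors, so this join bears on the width of 2655 bp. With every peak set to 200 bp around its middle, no region of the window held all 5 factors, nor did any with the wider peaks of each list. An overlap of 50% of the shorter peak, joined gaps of up to 500 bp and lists shortened by width to equal length each left 1. Over the genome, 9 of 938 regions bound by all 5 (0.959%) had no base covered by all 5.

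**Figure D2:**
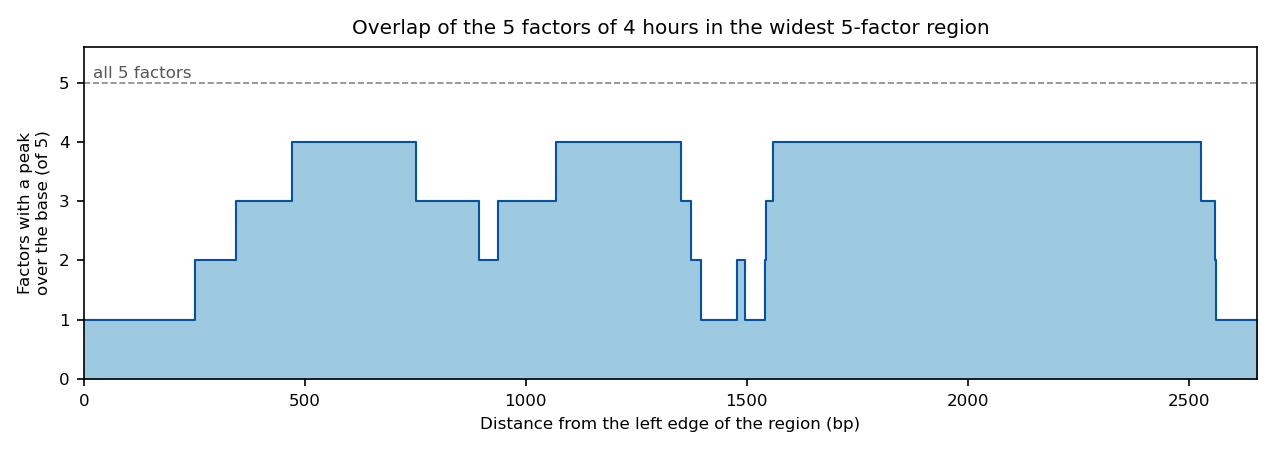
Number of the 5 factors of 4 hours (y axis) with a peak over each base of the widest 5-factor region, by distance in bp from its left edge (x axis). The count reaches 4 in 3 stretches of 280, 283 and 968 bp and never reaches the dashed line at 5.

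The 4 next widest regions bound by all 5 factors were built differently. They spanned 2428 bp on chromosome 4, 2269 bp on chromosome 7, 2202 bp on chromosome 19 and 2157 bp on chromosome 2, and all 5 factors shared 663, 906, 663 and 471 bp in them. A peak of any kind was in 18 lists at the Neat1 and Malat1 region, against 13, 13, 11 and 13 lists at the other regions and a median of 12 over all 938. The list without a peak there was PPARgamma of day 2, whose nearest peak began just outside the right edge, at 5847748. Every DHS list (6 of 6) and every RNA Pol II list (2 of 2) had a peak in the region of the window. None of the 4 other regions was in more than 4 DHS lists, and 1 of them, on chromosome 7, was in an RNA Pol II list. Over the genome, 110 of the 938 regions were in all 6 DHS lists (11.7%), 17 were in both RNA Pol II lists (1.81%) and 7 were in all 8 of these lists (0.746%). Of the 938, 9 had a peak in 18 or more lists (0.959%). Their median width was 945.5 bp over all 938, and the part of width in the number of lists was not tested.

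**Figure D3:**
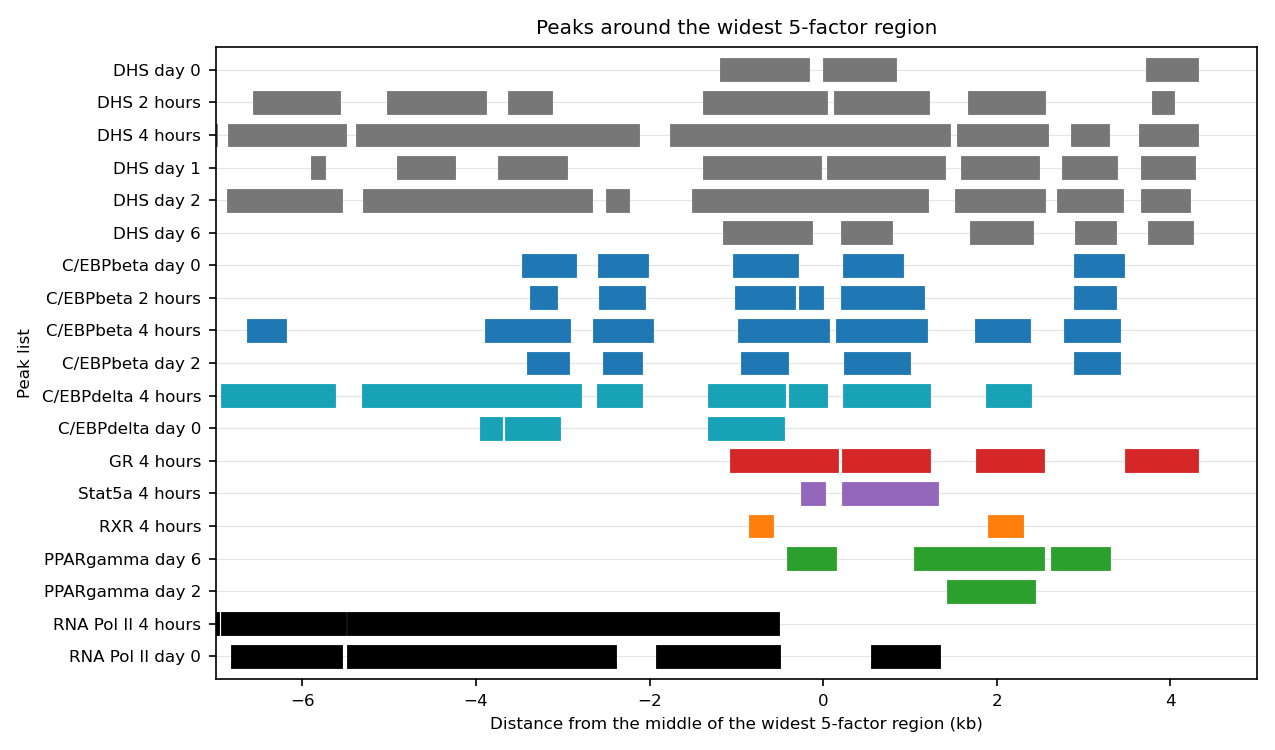
Peaks of the 19 lists (rows) within 7 kb to the left and 5 kb to the right of the middle of the widest 5-factor region, in kb; each box is 1 peak. DHS peaks of day 0 and day 6 lie over and to the right of the region, those from 2 hours to day 2 reach further left, and RNA Pol II peaks of 4 hours end inside its left part.

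A further 2 regions of the window held 3 or more factors. With the 5-factor region, for which the window was chosen, 3 of 15 did, against 15.7% over the genome. At 5848069 to 5848867, C/EBPbeta, C/EBPdelta, GR and RXR had 1 peak each. This site is the closest neighbour of the 5-factor region, it had no Stat5a peak, and it was 1 of 3 sites of the window where PPARgamma lay on both later days. At 5802197 to 5803219 in the lower cluster, C/EBPbeta, C/EBPdelta and RXR met. The RXR peak there, at 5802209 to 5802692, was 484 bp wide and overlapped C/EBPdelta, while the C/EBPbeta peak began at 5802798, to the right of it.

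GR and Stat5a peaks were in the upper cluster alone. GR had 4 peaks of 783 to 1243 bp, the widest at 5845246 to 5846488 (place 94 by width among 4080), and its last, at 5849804 to 5850644, was without any other of the 5 factors. Stat5a had 3 peaks, the widest of 1111 bp (place 62 among 6977) and the narrow ones of 300 bp at 5836598 to 5836897 and 283 bp. RXR had 3 peaks of 280 to 484 bp, none near the top of its list by width (places 1172 to 1983 of 2076). The GR and Stat5a lists had 1 peak each among their 100 widest in this locus, and the RXR list had none. Both of those peaks are part of the 5-factor region, whose width was a reason for choosing the window. Their places by width are therefore a description and support nothing.

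Open chromatin was listed over more of the locus after induction. DHS peaks in the window numbered 6 on day 0, 11 at 2 hours, 20 at 4 hours, 21 on day 1, 13 on day 2 and 10 on day 6. They covered 4269 bp on day 0, 9051 bp at 2 hours, 20427 bp at 4 hours, 13080 bp on day 1, 20454 bp on day 2 and 5650 bp on day 6. The covered length was thus greatest at 4 hours and day 2 and short on day 0 and day 6. The lists differ in length in the same way at most times, so the window's part of each list was also taken. Per 1 Mb covered by the peaks of a list, the window held 712.8 bp on day 0, 1640.1 bp at 2 hours, 979.0 bp at 4 hours, 670.8 bp on day 1, 1185.7 bp on day 2 and 934.3 bp on day 6. By this measure the highest list was that of 2 hours, and 4 hours and day 6 were close together.

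Of 20 open regions in the window in the 4 hours and day 0 lists together, 15 were listed at 4 hours and not on day 0 (69.6% of 32319 over the genome), none on day 0 and not at 4 hours (1.92%) and 5 at both (28.5%). The shares in the locus were near those of the genome. The length of open chromatin at 4 hours was 4.78 times that of day 0 in the window and 3.48 times over the genome. Between day 6 and day 0, 5 regions were listed on day 6 alone (32% over the genome), 1 on day 0 alone (19.3%) and 5 on both (48.6%).

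The window had 5 stretches that were open at all 6 times. In the lower cluster they were 5802471 to 5802918 (448 bp) and 5803417 to 5803918 (502 bp). In the upper cluster they were 5845172 to 5846152 (981 bp) and 5846522 to 5847112 (591 bp), both inside the 5-factor region, and 5850115 to 5850365 (251 bp). The lists of day 0, 2 hours, 4 hours, day 1 and day 6 kept the first pair apart as separate peaks, and a day 2 peak of 2003 bp joined it. Merged regions of the 6 lists gave 3 regions of 21 in the window listed at all times, against 8.76% of 46760 over the genome. Each of the 5 stretches except the last held an RNA Pol II peak of day 0, and the last held a GR peak.

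Several sites next to these were open for part of the course. The site at 5786465 to 5787577 was listed from day 0 to day 2 and not on day 6. The site at 5793034 to 5795842, at the left end of the lower cluster, and those at 5839451 to 5840817 and 5840942 to 5844196, left of the 5-factor region, were listed at 2 hours, 4 hours, day 1 and day 2 and on neither day 0 nor day 6. On the right of the 5-factor region, 5847839 to 5848914 was listed from 2 hours on and 5849021 to 5849775 from 4 hours on, both until day 6. The sites to the left were thus absent from the day 6 list, and those to the right were in it.

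The 3 sites 5771168 to 5771652, 5811927 to 5812621 and 5875058 to 5875534 were in the lists of day 1 and day 6 and in no other list of any kind. Those are also the 2 DHS lists that admit shorter peaks, with a minimum of 150 bp against 251 bp in the other DHS lists. The 6 peaks at these sites measured 338 to 695 bp. What part the difference between the lists had in this result was not tested.

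The widest DHS peaks stood near the top of their lists. On day 0 the widest of the window measured 1018 bp (place 351 of 9989), at 2 hours 1429 bp (place 55 of 9055) and on day 6 1023 bp (place 254 of 11936), each over the left part of the 5-factor region. At 4 hours the widest was 3255 bp at 5840942 to 5844196 (place 10 of 31751), on day 1 1362 bp at 5846363 to 5847724 (place 318 of 35389), and on day 2 3060 bp at 5798441 to 5801500 (place 30 of 25097). The day 2 peak was the only one of the 6 in the lower cluster. In that cluster DHS peaks covered 1186 bp on day 0, 2408 bp at 2 hours, 5980 bp at 4 hours, 3125 bp on day 1, 10084 bp on day 2 and 1184 bp on day 6, and in the upper cluster 2457, 6313, 11514, 6509, 9296 and 3333 bp at the same times. The order of the clusters was therefore turned on day 2 alone, when peaks covered 75.6% of the lower and 36.9% of the upper cluster. In the lower cluster the shares at the other times were 8.9% (day 0), 18.1% (2 hours), 44.9% (4 hours), 23.4% (day 1) and 8.88% (day 6). In the upper, longer cluster they were 9.75%, 25.1%, 45.7%, 25.8% and 13.2% at the same times.

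**Figure D4:**
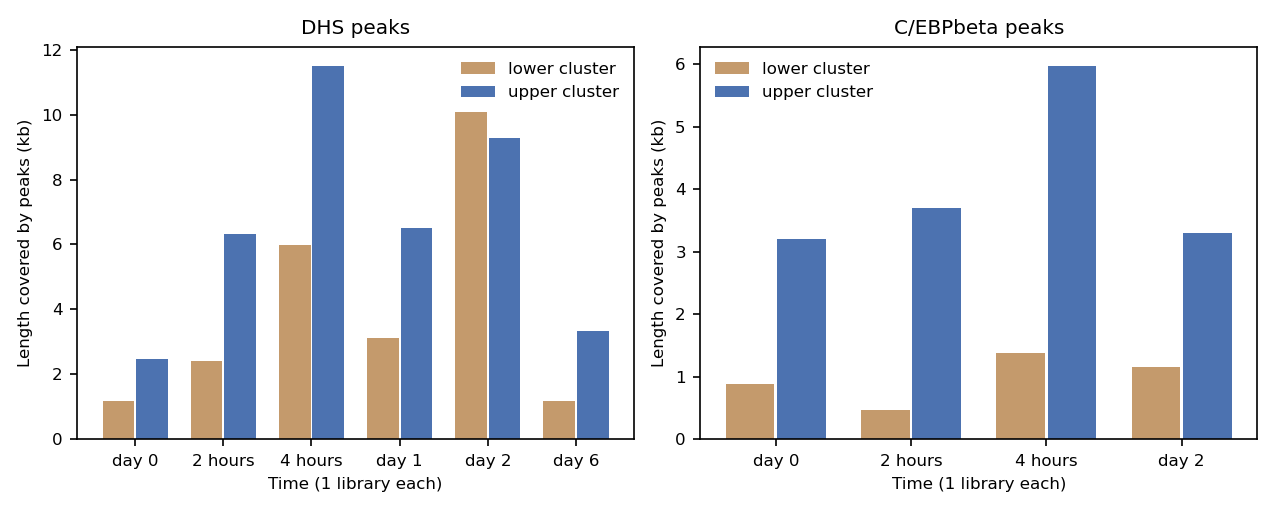
Length covered by DHS peaks (left) and C/EBPbeta peaks (right) in kb in the lower and upper cluster, by time, with 1 library per bar. The upper cluster is itself longer (25190 bp, against 13333 bp for the lower). It has the longer bar at every time except DHS on day 2 (9296 bp, against 10084 bp in the lower cluster).

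C/EBPbeta was listed at 6 sites at every time it was profiled. Its peaks in the window numbered 8 on day 0, 9 at 2 hours, 12 at 4 hours and 8 on day 2. Of 14 regions in the 4 lists, 6 were listed at all 4 times, against 22.5% of 41360 over the genome: 5798544 to 5799215 in the lower cluster, and 5842429 to 5843469, 5843673 to 5844359, 5845279 to 5846390, 5846472 to 5847521 and 5849094 to 5849784 in the upper cluster. Those at 5845279 to 5846390 and 5846472 to 5847521 are the left and right parts of the 5-factor region. Both parts thus had C/EBPbeta before induction.

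Between 4 hours and day 0, 6 regions were in both C/EBPbeta lists (41.8% of 35444 over the genome), 6 at 4 hours and not on day 0 (42.4%) and 2 on day 0 and not at 4 hours (15.8%). The window's 14 regions split close to the genome. With lists shortened by width to equal length the order turned round, with 1 region at 4 hours alone and 3 on day 0 alone. Of the 6 listed at 4 hours and not on day 0, the one at 5827691 to 5828222 was also listed at 2 hours and on day 2, the one at 5802792 to 5803279 was also listed on day 2, and those at 5795045 to 5795483, 5818217 to 5818732, 5839681 to 5840126 and 5848069 to 5848706 were listed at 4 hours only. The 2 of day 0 were 5804335 to 5804667, listed at no later time, and 5814905 to 5815440, listed again at 2 hours. The last site was in the DHS lists of 4 hours and day 1, and at 4 hours it had no C/EBPbeta peak. The widest C/EBPbeta peak of the window was in the 5-factor region at each time and measured 751 bp on day 0 (place 2658 of 20471), 950 bp at 2 hours (place 481 of 19703), 1054 bp at 4 hours (place 804 of 29957) and 757 bp on day 2 (place 1327 of 21486). The peak of 4 hours is part of the region whose width was a reason for choosing the window.

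C/EBPbeta sites were compared with the open chromatin of the same time. On day 0, 2 of the 8 C/EBPbeta peaks overlapped a DHS peak (15.5% of 20471 over the genome), and both lay in the 5-factor region. At 2 hours 4 of 9 did (22%), at 4 hours 11 of 12 (45.6%) and on day 2 7 of 8 (42.4%). The 4 hours peak outside open chromatin was the one at 5827752 to 5828222, and no DHS list had a peak there at any time. Of the 12 peaks of 4 hours, 3 overlapped a DHS peak of day 0 (9.9% over the genome). DHS peaks covered 8.9% of the lower and 9.75% of the upper cluster on day 0, and 18.1% and 25.1% at 2 hours. They covered 44.9% and 45.7% at 4 hours, and 75.6% and 36.9% on day 2. The part of this cover in the counts was not tested.

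C/EBPdelta had 13 peaks in the window at 4 hours and 5 on day 0, covering 10191 bp at 4 hours and 3196 bp on day 0. Of 13 regions, 9 were listed at 4 hours and not on day 0 (86.3% of 18843 over the genome), 4 were in both (10.8%) and none on day 0 alone (2.81%). Over the genome the C/EBPdelta lists held 18327 peaks at 4 hours and 2581 on day 0. The share in both lists was higher in the window (30.8%, 4 of 13 regions) than over the genome, and the share at 4 hours alone was lower (69.2%). The reason for this difference was not tested. At 4 hours the peak at 5841008 to 5843533, of 2526 bp, was the widest of the whole C/EBPdelta list, and that at 5839385 to 5840697, of 1313 bp, stood at place 28. The widest day 0 peak, of 926 bp at 5802059 to 5802984, stood at place 48 of 2581.

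Many C/EBPdelta peaks of the locus lay over RNA Pol II peaks. At 4 hours, 9 of 13 C/EBPdelta peaks overlapped an RNA Pol II peak (6.97% of 18327 over the genome), and on day 0 all 5 did (25.5% of 2581). For C/EBPbeta the counts were 7 of 12 peaks at 4 hours (5.96% of 29957) and 6 of 8 on day 0 (8.55% of 20471). By length, 74% of the bases under C/EBPdelta peaks of 4 hours were under RNA Pol II of 4 hours (5.54% over the genome) and 42.3% of those under C/EBPbeta (4.21%). On day 0 these were 98.8% for C/EBPdelta (23.8%) and 54.3% for C/EBPbeta (6.19%). RNA Pol II peaks of 4 hours covered 39.3% of the lower and 49.7% of the upper cluster. Those of day 0 covered 56.7% of the lower and 28% of the upper cluster. The part of this cover in the counts and lengths was not tested. Of the GR peaks, 1 of 4 overlapped RNA Pol II of 4 hours (5.25% of 4080).

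PPARgamma, the nuclear receptor that drives adipocyte gene expression, had 5 peaks in the window on day 6 and 3 on day 2, all in the upper cluster. Of 5 regions, 3 were in both lists (32.2% of 6531 over the genome), 2 on day 6 and not on day 2 (51.7%) and none on day 2 alone (16.1%). The widest of either day covered the site right of the 5-factor region that C/EBPbeta, C/EBPdelta, GR and RXR shared at 4 hours. It measured 1505 bp at 5847367 to 5848871 on day 6 (place 129 of 5493) and 1014 bp at 5847748 to 5848761 on day 2 (place 321 of 3168). The day 6 peak reached into the 5-factor region and the day 2 peak did not.

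The second shared site, at 5827688 to 5828486, had held C/EBPbeta at 2 hours, 4 hours and day 2. Its PPARgamma peaks measured 527 bp on day 6 and 799 bp on day 2. The third, at 5833074 to 5834158, with peaks of 1085 bp on day 6 and 924 bp on day 2, had no earlier factor, and the other list with a peak there was RNA Pol II of 4 hours. Neither of these sites was in any DHS list. The 2 sites of day 6 alone were 5845901 to 5846465 (565 bp), inside the 5-factor region, and 5848950 to 5849627 (678 bp), over the C/EBPbeta site listed at all 4 of its times. In all, 3 of 5 PPARgamma peaks overlapped DHS peaks on day 6 (30.8% of 5493 over the genome) and 1 of 3 on day 2 (74% of 3168).

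RNA Pol II, which marks transcribed DNA, covered more of the upper cluster and less of the lower cluster at 4 hours than on day 0. In the upper cluster its peaks covered 12528 bp at 4 hours and 7047 bp on day 0, a ratio of 1.78. In the lower cluster they covered 5238 bp at 4 hours and 7560 bp on day 0, a ratio of 0.693. Over the genome the ratio was 0.92. The 2 clusters thus lay on either side of the genome's ratio, with 1 library per time. No spread of this ratio over other loci is given here, and the covered lengths were not taken again under other peak settings.

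In the upper cluster the peaks reached further to the left at 4 hours. They ran from 5825455 to 5845810 at 4 hours and from 5836497 to 5847665 on day 0. The 4 hours list had 4 peaks with no day 0 peak over them: 5825455 to 5826035 (581 bp), 5832280 to 5832644 (365 bp), 5832929 to 5833965 (1037 bp) and 5838783 to 5839361 (579 bp). At 5834820 to 5838379 a 4 hours peak of 3560 bp, place 18 of 12558 by width, covered a day 0 peak of 440 bp. Further right, a peak of 4972 bp at 5840839 to 5845810 stood at place 5 by width at 4 hours, and 2 day 0 peaks of 3095 bp (place 9 of 14784) and 1438 bp lay over the same stretch with a gap between them. The peaks at 5839386 to 5840819 differed little, with 1434 bp at 4 hours and 1282 bp on day 0.

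On the right, the last peak of 4 hours ended at 5845810 and that of day 0 over the same stretch at 5845828, both inside the left part of the 5-factor region. A further day 0 peak of 792 bp at 5846874 to 5847665, in the right part, had no counterpart at 4 hours. RNA Pol II was therefore in both lists at the left part of the region and in the day 0 list alone at the right part.

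In the lower cluster RNA Pol II had 3 peaks at 4 hours and 10 on day 0. The 4 hours peaks were 5794104 to 5795408 (1305 bp), 5798996 to 5801804 (2809 bp, place 55 of 12558) and 5801931 to 5803054 (1124 bp). The widest on day 0 was 5799836 to 5801783 (1948 bp, place 118 of 14784), followed by 5801934 to 5803639 (1706 bp) and 5794100 to 5795617 (1518 bp). The others of day 0 measured 251 to 504 bp, and the 5 regions 5795986 to 5796350, 5797129 to 5797605, 5798556 to 5798806, 5803838 to 5804090 and 5804246 to 5804749 of day 0 had no 4 hours peak. Of the length covered at 4 hours, 90.2% was also covered on day 0.

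**Figure D5:**
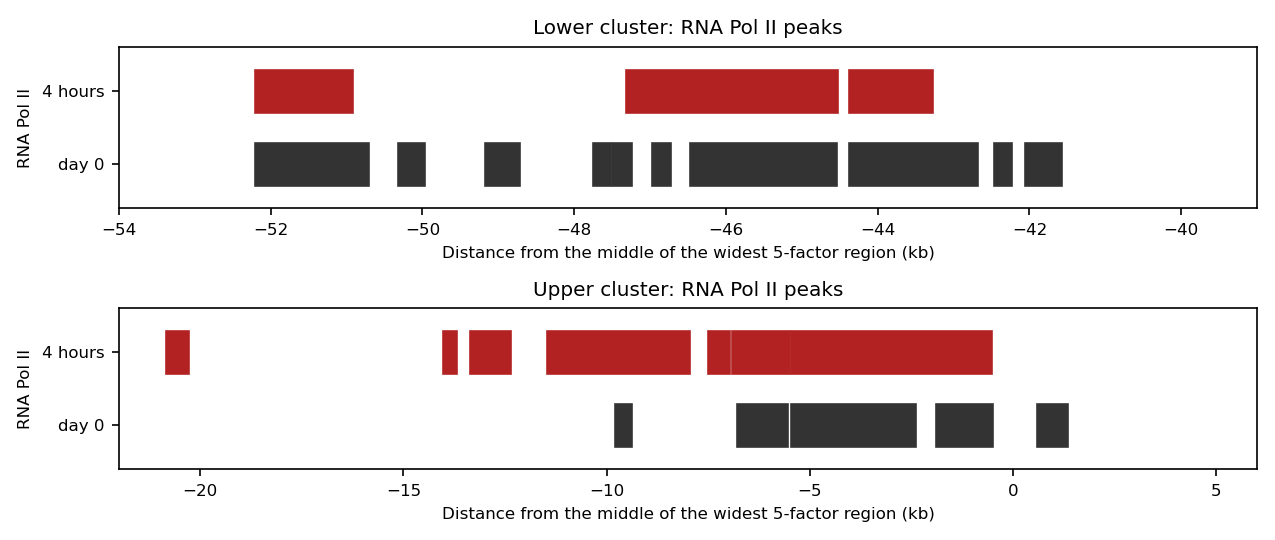
RNA Pol II peaks of 4 hours (upper row) and day 0 (lower row) in the lower cluster (top) and the upper cluster (bottom), by distance in kb from the middle of the widest 5-factor region. Peaks of 4 hours cover less of the lower cluster than those of day 0 (5238 bp, against 7560 bp) and more of the upper cluster (12528 bp, against 7047 bp).

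Counted as regions over the window, 6 of 16 held RNA Pol II at both times (41.5% of 18710 over the genome), 4 at 4 hours and not on day 0 (23.3%) and 6 on day 0 and not at 4 hours (35.2%). These counts were close to the genome's split, and they do not carry the widths. With every peak set to 200 bp the 3 counts were 3, 7 and 12. The order of the last 2 counts turned round when each list kept the peaks at or above its median width, with 4 at 4 hours alone and 1 on day 0 alone, and lists shortened by width to equal length gave 4 of each. Open chromatin of 4 hours overlapped 7 of the 10 RNA Pol II peaks of 4 hours (65.5% of 12558), and that of day 0 overlapped 4 of the 15 of day 0 (37% of 14784). Of the 20 DHS peaks of 4 hours, 11 overlapped RNA Pol II of 4 hours (24.9% of 31751), and of the 6 of day 0, 4 overlapped RNA Pol II of day 0 (51.9% of 9989).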

How the data were processed

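The deposited data were 19 peak lists, 6 from DHS-seq and 13 from chromatin immunoprecipitation, with 1 list to a sample. Per the file headers and values, each list gives chromosome, start and end in base pairs. The submitters' processing notes name mm9 as the build. The aligner, peak caller, threshold and read depth are not given in the sources used here; calling settings bear on peak number and width. The input sample was not analysed here.

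Starts were turned into positions counted from 1. Peaks that overlapped by 1 bp or more were merged, and each region was scored by the lists with a peak in it. Place by width counts the wider peaks of the same list plus 1. With 1 library per group no p-value, SD or interval over replicates was made. Alternatives were an overlap of 50% of the shorter peak, gaps of up to 500 bp, peaks of 200 bp, the wider peaks of each list (at or above its median width), lists of equal length by width, and a window changed by 10 kb on each side. The members, the window and the regions described were chosen with earlier results of these data known. Positions were named by a rule: the peaks of the widest 5-factor region, regions with 3 or more factors, RNA Pol II regions, DHS regions listed at 4 or more times or on day 6, PPARgamma peaks and each list's widest peak. The C/EBPbeta sites outside this rule and the narrower GR and Stat5a peaks were named after their values were seen. So was the C/EBPdelta peak of 4 hours at 5839385 to 5840697. Promoter sequences came from RefSeq (GRCm38.p6), where 1 of the 2 member genes matched. Merging was tested on simulated data, where 400 of 400 planted regions were recovered with the planted number of lists. The peaks of a planted region were set to overlap and lay far from other regions. This checks the code and does not cover dense peaks that chain, as in this locus. Python 3.11.15 and Matplotlib 3.10.9 were used.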

Additional observations from a re-analysis of the deposited data

How the results depend on the processing

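Of 88 alternative values for 18 counts, 53 stayed within 1.5 times the reported count and 35 did not. The cause was not tested, except that fewer or shorter peaks, or wider joining, change counts by construction. Keeping the wider peaks of each list, at or above its median width, left 103 of the 179 peaks, no region with all 5 factors, 1 region with 3 or more, 9 DHS regions at 4 hours and not on day 0, 2 on day 6 and not on day 0, 3 C/EBPbeta regions at 4 hours alone, 0 on day 0 alone and 3 at both, 3 C/EBPdelta regions at 4 hours alone, 4 RNA Pol II regions at 4 hours alone against 1 on day 0 alone, and 3 PPARgamma regions. Lists shortened by width to equal length left 65 peaks, 1 region with 3 or more factors, 6 DHS regions at 4 hours and not on day 0, 2 on day 0 and not at 4 hours and 3 at both, 1 C/EBPbeta region at 4 hours alone against 3 on day 0 alone, 4 RNA Pol II regions at each time alone, 3 C/EBPdelta regions at 4 hours alone and 3 PPARgamma regions. Peaks of 200 bp gave 47 merged regions of all lists in place of 24, 0 regions with all 5 factors, 3 DHS regions on day 0 and not at 4 hours and 3 at both, 4 C/EBPbeta regions on day 0 alone, and RNA Pol II regions of 7 at 4 hours alone, 12 on day 0 alone and 3 at both. Joining gaps of up to 500 bp gave 13 merged regions, 8 DHS regions at 4 hours and not on day 0, 3 at both and 3 on day 6 and not on day 0, 5 C/EBPdelta regions at 4 hours alone, and RNA Pol II regions of 2 at 4 hours alone, 2 on day 0 alone and 3 at both.

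The count of 18 lists at the 5-factor region was 17 to 19 under the alternatives run. The region was kept at its reported place in each, also where no region held all 5 factors. This count therefore does not say whether the region is found again. Absence of a peak may be a matter of depth, which is unknown. No paired analysis was possible because each group is 1 library.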
